A study of Drosophila melanogaster with 2 samples.

Results

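The 10 Polycomb group genes ph-p, ph-d, Pc, Psc, Su(z)2, Sce, E(z), esc, Su(z)12 and pho were examined among the 13945 protein-coding genes of the 6 main Drosophila melanogaster chromosomes for peaks of the transcription factor Drgx. Their peaks were those that overlapped a gene body on the dm6 assembly or the 5 kb on either side, here called the window of the gene. In all, 26 of the 8443 peaks of the pooled thresholded list met this rule, and 8 of the 10 genes had at least 1 of them. The genes were selected on their function with earlier results of the same lists known, in which signal placed a ph-p peak among the strongest, so their peaks are described and not tested. The data come from chromatin immunoprecipitation and sequencing (ChIP-seq) on whole embryos of the fly strain Drgx-GFP, aged 1 day, which carries a transgene for the fusion protein Drgx-eGFP, with an antibody to the fluorescent tag. There were 2 biological replicates of this 1 group, and a possible control experiment named in the labels was not used here. Whole embryos mix all tissues, the tagged protein comes from an inserted transgene, and no untagged embryos were compared, so which peaks come from the tagged protein was not tested. The lists hold no expression values, so the stage of the embryos could not be checked against marker genes.

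Polycomb group proteins keep developmental genes silent through chromatin, and in the fly embryo they hold the Hox genes off outside their segments. Polycomb repressive complex 1 (PRC1) compacts chromatin and places ubiquitin on histone H2A. Polycomb repressive complex 2 (PRC2) methylates histone H3 at lysine 27, a mark that PRC1 can read. Both complexes are brought to DNA elements by sequence-specific factors, of which Pho is the best known. Drgx itself is a paired-like homeodomain protein, and proteins of this family recognise DNA with a TAAT core.

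Sequences of 4 of these peaks are given on the plus strand of NCBI's Release 6 reference assembly, which is dm6, with every TAAT or ATTA in capitals. They are the peaks of highest signal in or beside ph-p, Pc and E(z), and 1 intron peak of ph-p, chosen to show how differently supplied with TAAT the members' peaks are. The ph-p sequences reach 50 bp either side of the summit, at X:2137278-2137378 for the strongest peak and X:2134385-2134485 for the intron peak. The Pc and E(z) sequences, at 3L:21304529-21304608 and 3L:10637985-10638041, are shorter because bases of annotated untranslated regions were left out. The longest remaining part was kept.
ph-p strongest peak: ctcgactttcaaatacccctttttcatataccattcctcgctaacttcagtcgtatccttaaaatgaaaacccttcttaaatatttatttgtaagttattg
ph-p intron peak: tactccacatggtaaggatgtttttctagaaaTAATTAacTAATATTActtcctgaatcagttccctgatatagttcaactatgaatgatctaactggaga
Pc window peak: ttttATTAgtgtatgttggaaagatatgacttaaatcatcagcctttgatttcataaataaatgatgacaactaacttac
E(z) promoter peak: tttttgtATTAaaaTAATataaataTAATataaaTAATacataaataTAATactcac
The strongest ph-p peak held no TAAT on either strand within 50 bp of its summit, whereas the ph-p intron peak had 4 matches, some of them overlapping. The E(z) sequence had 5 matches in its 57 bases, and the Pc sequence had 1 in its 80 bases.

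The strongest ph-p peak and the strongest ph-d peak also contain copies of one sequence, which matters for reading both. ph-p and ph-d are a tandem pair of duplicated genes separated by 2923 bp. The stretch X:2136941-2137261 in the ph-p peak and the stretch X:2123371-2123693 in the ph-d peak aligned over 329 columns. Of these columns 303 were identical (92.1%), 12 were substituted and 14 were gapped, and the longest identical run was 86 bases. The part around the ph-d summit is given for both genes on the plus strand, X:2137044-2137245 for ph-p and X:2123478-2123678 for ph-d, with bases that differ or lack a partner in capitals.
ph-p copy: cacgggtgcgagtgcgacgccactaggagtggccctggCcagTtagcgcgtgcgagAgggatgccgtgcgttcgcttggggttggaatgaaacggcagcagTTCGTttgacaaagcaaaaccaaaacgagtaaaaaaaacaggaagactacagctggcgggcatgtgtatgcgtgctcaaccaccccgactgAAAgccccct
ph-d copy: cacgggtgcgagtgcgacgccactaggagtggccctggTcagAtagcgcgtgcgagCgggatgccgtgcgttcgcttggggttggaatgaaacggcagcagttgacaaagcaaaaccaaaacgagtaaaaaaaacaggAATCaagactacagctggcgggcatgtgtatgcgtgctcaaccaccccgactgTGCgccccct
Of the aligned positions printed, 191 were identical and 6 were substituted. The ph-d summit lay inside the shared stretch, at its base 208. The ph-p summit lay 67 bp beyond the end of its stretch, so the summits did not fall on matching bases. Within 150 bp of the summit, 94.7% of all 36-base words were found once in the genome for the strongest ph-p peak and 74.4% for the strongest ph-d peak. The treatment of reads that match both genes is not stated, and the share of signal that such reads carry was not tested. In 23 of the 26 peaks every 36-base word was unique, and the other 3 were the strongest ph-p peak and a pair of ph-d peaks.

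The PRC1 genes carried most of the peaks. All 6 of them had a pooled peak, and their windows held 23 peaks in 112.5 kb, or 2.04 per 10 kb. The PRC2 genes had 3 peaks in 41.0 kb, or 0.732 per 10 kb, and 2 of the 3 genes had one. pho had none in its 19.2 kb window. Over the 6 chromosomes the pooled list held 0.631 peaks per 10 kb, a density that also counts sequence outside gene windows. No density over the windows of all coding genes was computed. A window with a peak is common in these lists: 8 of the 10 members had one, and so did 55.5% of all coding genes. Among the 7431 coding genes whose windows were no shorter and no longer than those of the members, 59.4% had one. At least 4 pooled peaks were in the window of 4 of the 10 members and of 9.29% of all coding genes, a share not matched for window length. These members were ph-p, ph-d, Psc and Su(z)2, and the 4 peaks of ph-d also count in the ph-p window. A pair of the ph-d peaks are summits of 1 interval, so by distinct intervals ph-d would not reach 4. The share over all coding genes was counted by summits too. The members' median was 1.5 peaks per window and that of all coding genes 1. In the conservative list 8 of 10 members had a peak, against 54.3% of all coding genes. Replicate 1 had one for 8 members, against 48.7% of coding genes, and replicate 2 for 7, against 44.9%, with Su(z)12 the member that dropped out.

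**Figure D1:**
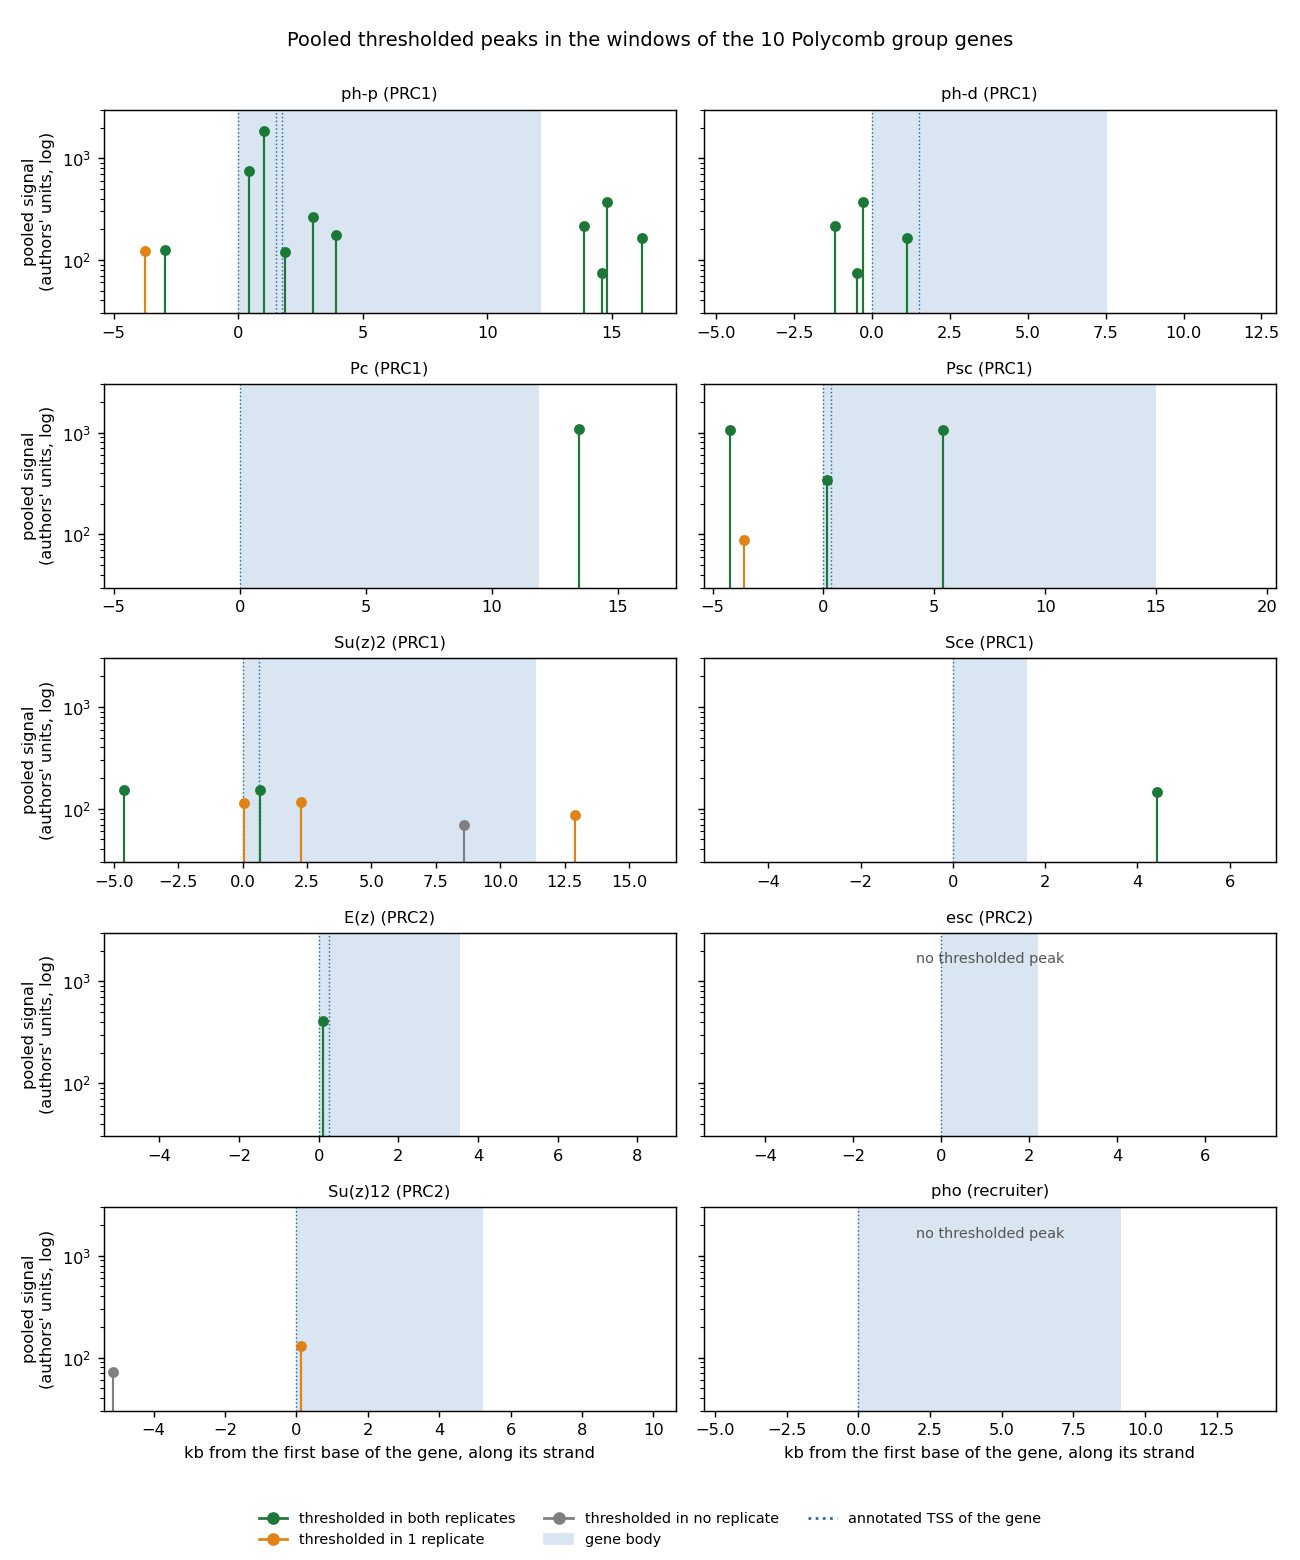
Each panel shows the window of 1 gene, with the summit position in kb from the first base of the gene along its strand on the horizontal axis and the authors' signal in the pooled list on a logarithmic vertical axis. Shading marks the gene body, dotted lines its annotated transcription start sites, and colour the replicates in which a thresholded peak overlaps; the 4 ph-d peaks lie in the ph-p window too, and esc and pho have no thresholded peak.

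Peaks at promoters made up 16 of the 26, and 36.8% of all pooled peaks. A summit counted as a promoter summit when it lay up to 500 bp from any transcription start site (TSS) in the annotation. Of these 16, 11 lay at a promoter of a member itself and 5 at a promoter of a neighbour without a member TSS in reach. The remaining 10 peaks comprised 6 in introns and 4 between genes. At the level of genes, a promoter summit of their own was found for 6 of 10 members and for 20.9% of all coding genes. These 6 were ph-p, ph-d, Psc and Su(z)2 of PRC1 and E(z) and Su(z)12 of PRC2. Pc and Sce had peaks in their windows only at the promoters of neighbouring genes.

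ph-p encodes Polyhomeotic proximal, a PRC1 subunit with a SAM domain through which it polymerises. The gene lies on the minus strand at X:2126210-2138371, and its window had 11 pooled peaks, a number that 0.925% of all coding genes reached or passed when counted as 10 or more. Of these, 7 were in or beside ph-p and the other 4 were those of ph-d. The strongest, at X:2136906-2137556, had a signal of 1840 and rank 12 of 8443 in the pooled list. Its signal was 1081 in replicate 1, rank 9 of 6349, and 756 in replicate 2, rank 18 of 5475. Both replicates thus placed it near the top of their own lists. Its summit was 473 bp upstream of an internal ph-p TSS at X:2136855 and inside the longer transcript that starts at X:2138371. The peak at X:2137704-2138111, 434 bp downstream of that longer transcript's start, reached a pooled signal of 753, with 550 for replicate 1 and 202 for replicate 2. Its ranks were 185 (pooled), 108 (replicate 1) and 476 (replicate 2).

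The other ph-p peaks were weaker, with signals of 120 to 265, against a median of 120.1 over the pooled list. A peak 135 bp downstream of the TSS at X:2136622 had a pooled signal of 120. The intron peaks had a signal of 265 at 1252 bp and 177 at 2187 bp downstream of the nearest ph-p TSS. The peak at 2187 bp is the intron peak whose TAAT-bearing sequence is printed above. Upstream of ph-p, a peak at the promoter of the neighbour D2hgdh had a signal of 126 and a peak in an intron of D2hgdh had 123. All but the D2hgdh intron peak, which was absent from the replicate 2 thresholded list, were thresholded in both replicates.

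ph-d encodes the distal Polyhomeotic paralogue and lies on the minus strand at X:2115727-2123286. Its strongest pooled peak, at X:2123371-2123887, had a signal of 368 and rank 774. Replicate 1 gave it a signal of 273, rank 510, and replicate 2 gave it 124, rank 1161. The summit was 292 bp upstream of the first base of the gene, and a weaker summit of signal 73.6 in the same interval was 495 bp upstream. A peak 1200 bp upstream of ph-d, between the paralogues, had its partners at different places. Its pooled signal was 216. Replicate 2 had a peak of 182, rank 582, with its summit 1 bp away, the strongest ph-d peak of that list. Replicate 1 had a pair of overlapping peaks, one of 80.0, rank 3600, with its summit 4 bp away, and one of 84.2, rank 3349, with its summit 205 bp away and outside the pooled interval. The fourth ph-d peak, of signal 164, lay inside the gene 378 bp upstream of an internal TSS. The 36-base words of the ph-d gene were unique in 67.5% and shared with ph-p in 32.5% of cases, and those of ph-p were unique in 67.8% and shared with ph-d in 20.2%.

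Pc encodes Polycomb, whose chromodomain binds the methylated lysine 27 of histone H3. The gene spans 3L:21306138-21318020 on the minus strand, and 1 pooled peak fell in its window. This peak, at 3L:21304427-21304727, had a signal of 1087 and rank 82. It had a signal of 688 and rank 62 in replicate 1, and 400 and rank 120 in replicate 2. It did not lie in Pc: it was 1411 bp beyond the 3′ end of the gene, 13441 bp from the Pc TSS and 79 bp from the TSS of CG11309. A TSS of CG7632 was also within 500 bp. The next pooled peak outward was 19969 bp from the gene, so Pc itself and its promoter held no thresholded peak in any of the 4 lists.

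Psc encodes Posterior sex combs, a RING-finger PRC1 subunit that compacts nucleosomes, and its paralogue Su(z)2 lies 15506 bp away. Psc, on the minus strand at 2R:12965997-12980994, had 4 pooled peaks, of which a pair ranked among the 100 strongest. The peak at 2R:12985050-12985376 had a signal of 1064 and rank 87, and the peak at 2R:12975423-12975743 had 1052 and rank 94. In replicate 1 they had signals of 649 and 601, and in replicate 2 of 435 and 445, so replicate 2 placed them in the opposite order. The first summit was 4201 bp upstream of Psc and 172 bp upstream of a TSS of the non-coding gene lncRNA:CR44339. The other was in a Psc intron, 5075 bp downstream of the nearest Psc TSS. The Psc promoter had a weaker peak, 145 bp downstream of a TSS, whose pooled signal was 345, with 214 for replicate 1 and 113 for replicate 2. The fourth peak, of signal 88.4, was between genes and was thresholded in replicate 1 but not in replicate 2. At least 1 of the 100 strongest peaks was found in the windows of 3 of 10 members, ph-p, Pc and Psc, and of 2.17% of all coding genes. Psc was 1 of 4 coding genes (0.0287%) with 2 or more of them. By peaks, 4 of the 26 member peaks were among the 100 strongest, which make up 1.18% of the pooled list.

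Su(z)2, on the plus strand at 2R:12996501-13007911, had 6 pooled peaks, more than Psc, but all of them were of middling or low signal. The strongest, 40 bp downstream of the internal TSS at 2R:12997123, had a pooled signal of 153 and rank 3045, with 76.7 for replicate 1 and 66.1 for replicate 2. A peak 41 bp downstream of the first TSS had a pooled signal of 113 and 65.5 for replicate 1, and passed the threshold in replicate 1 but not in replicate 2. The remaining 4 had pooled signals of 69.8 to 152. In total 2 of the 6 were thresholded in both replicates, 3 in 1 replicate and 1 in neither. In the top 1000 of the 8443 pooled peaks were 3 of the 4 peaks at Psc and 0 of the 6 at Su(z)2. With so few peaks, 0 of 6 is near the share of the whole list.

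Sce encodes Sex combs extra, the RING protein that attaches ubiquitin to histone H2A in PRC1. The gene, at 3R:27680431-27682029 on the minus strand, had 1 pooled peak in its window. That peak, at 3R:27677404-27677787, had a pooled signal of 145 and rank 3289. Replicate 1 gave it 86.1 and rank 3245, and replicate 2 gave it 47.6 and rank 4545. It was 2644 bp from Sce and 74 bp downstream of the TSS of the neighbour Hsdl2. Like Pc, Sce thus had no thresholded pooled peak in the gene or at its own promoter.

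**Figure D2:**
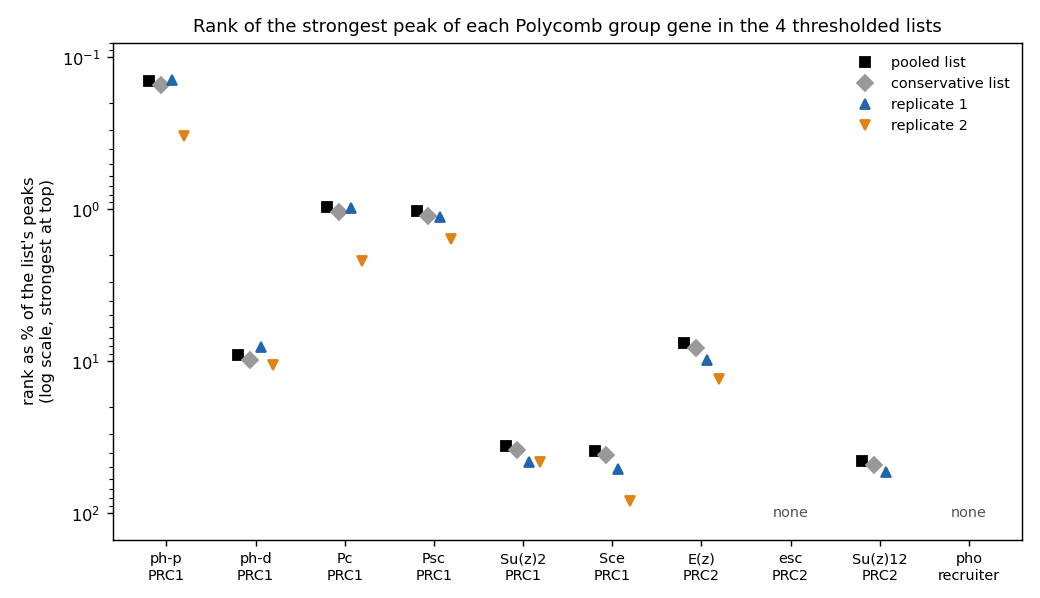
For each gene the markers give the rank of its strongest peak as a percentage of the list's peaks, on a logarithmic vertical axis with the strongest at the top, in the pooled, conservative, replicate 1 and replicate 2 thresholded lists. ph-p stands at 0.142% of the pooled list, Pc at 0.971% and Psc at 1.03%, E(z) and ph-d lie between 7% and 14% in all 4 lists, and Su(z)2, Sce and Su(z)12 stand at 36.1% or deeper.

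E(z) encodes Enhancer of zeste, the methyltransferase of PRC2, and had the strongest peak of the PRC2 genes. The gene spans 3L:10634575-10638130 on the minus strand, and its 1 pooled peak, at 3L:10637909-10638147, had a signal of 410 and rank 644. Its signal was 244 in replicate 1, rank 627, and 163 in replicate 2, rank 713. The summit was 95 bp downstream of an E(z) TSS, and a TSS of Cnep1r2 was also within 500 bp. In the 50 bp either side of this summit the share of G and C was 15.8%, the lowest of the 26 peaks, as the AT-rich sequence printed above shows.

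Su(z)12 encodes a zinc-finger subunit that PRC2 needs for its activity. The gene, at 3L:19918242-19923462 on the minus strand, had a peak 118 bp downstream of its TSS, also within 500 bp of a TSS of Pfdn6. That peak had a pooled signal of 130 and rank 3819, and replicate 1 gave it 82.9 and rank 3422. In replicate 2 it was found in the ranked list alone, with a signal of 44.0 and a score of 780, below the lowest score of 830 in the thresholded lists. A further peak of signal 72.1, at the shared promoter region of CG8004 and RhoGDI and 4934 bp from Su(z)12, was just inside the window and was thresholded in neither replicate. Just outside the 5 kb limit, Su(z)12 had a peak of signal 113 at 5595 bp, Psc one of 81.3 at 5595 bp, and Su(z)2 one of 59.3 at 5079 bp.

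esc encodes Extra sex combs, the WD40-repeat subunit of PRC2 that binds its methylated product. The gene, at 2L:11827204-11829405 on the minus strand, had no peak in any of the 4 thresholded lists, and the nearest pooled peak was 10447 bp away. Its window did hold peaks in every ranked list, which also contain peaks that failed the authors' threshold. There were 12 in the pooled ranked list, 11 in the conservative one, 8 in replicate 1 and 6 in replicate 2. The strongest of them in the pooled ranked list had a signal of 51.1, a score of 622 and rank 14603 of 97308, and lay beyond the 3′ end of esc, in an intron of another gene, 3162 bp downstream of the esc TSS. By signal, replicate 1 had its strongest peak 3156 bp from the TSS, with 26.4 and rank 19007 of 85954, and replicate 2 had its strongest 3141 bp from the TSS, with 26.9 and rank 12583 of 77983. Both replicates thus had their strongest esc peak at the site of the pooled one, with scores of 276 in replicate 1 and 128 in replicate 2, below the lowest thresholded score of 830. By score, the best peak of replicate 2 was another one, with 745, at 283 bp from the TSS and with a lower signal of 18.7.

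pho encodes Pleiohomeotic, the DNA-binding protein of the Pho-repressive complex. The gene is on the small chromosome 4, at 4:1172469-1181628 on the minus strand, and its window had no peak in any of the 8 lists. The nearest pooled peak was 145091 bp away, near PlexA, with a signal of 186. Peaks of any ranked list were found in the windows of the other 9 members and of 93.1% of all coding genes, but of 23.8% of the 80 coding genes of chromosome 4. In the pooled thresholded list, 6.25% of the chromosome 4 genes had a peak in the window. At 0 peaks pho was thus in the same state as most genes of its chromosome, and whether this reflects the chromosome or the gene cannot be told apart in these lists.

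**Figure D3:**
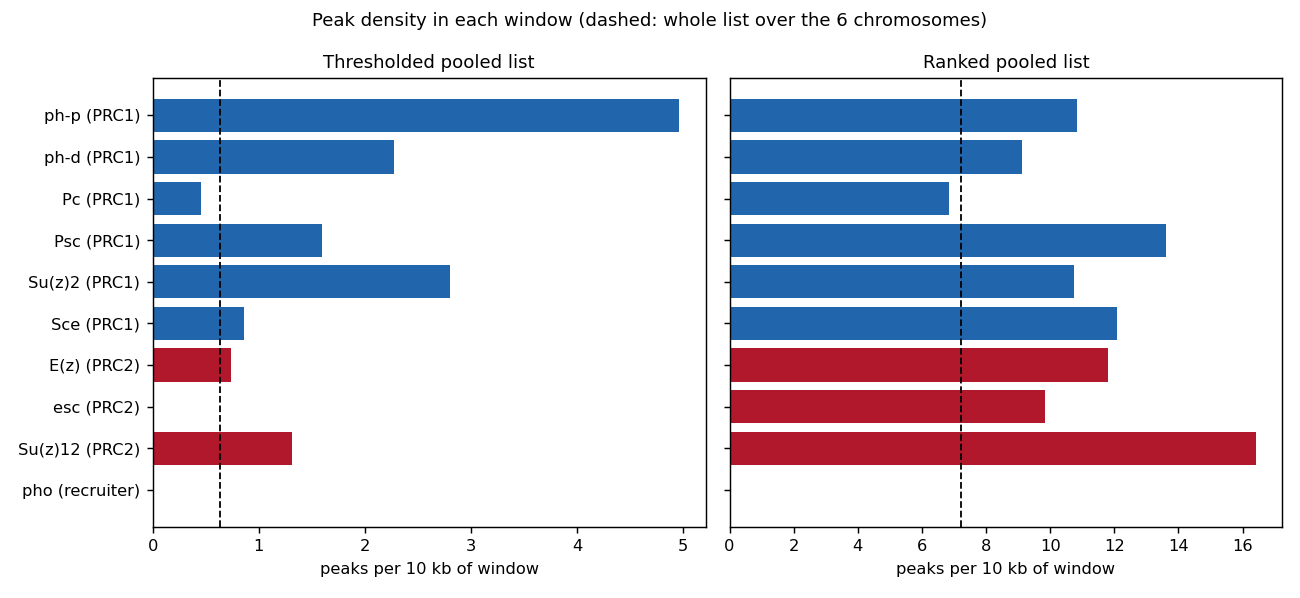
Horizontal bars give the number of peaks per 10 kb of window for each gene in the pooled thresholded list (left) and the pooled ranked list (right), with PRC1 genes in blue, PRC2 genes in red and the density of the whole list over 6 chromosomes dashed. ph-p has the highest thresholded density, 4.96 per 10 kb, and pho is at 0 in both.

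The densities stood in another order among ranked peaks. In the pooled ranked list the PRC2 windows held 12.9 peaks per 10 kb and the PRC1 windows 10.5. The whole list held 7.22 over 6 chromosomes, which also count sequence outside gene windows. The density over the windows of all coding genes was not computed. The number of ranked peaks per gene was 24 at ph-p, 16 at ph-d, 15 at Pc, 34 at Psc, 23 at Su(z)2 and 14 at Sce. E(z) had 16, esc 12, Su(z)12 25 and pho 0. The median over the 10 members was 16, and over all coding genes it was 15, although the median window of the members, 18360 bp, was longer than that of all coding genes, 12166 bp. A ranked peak in the window was found for 9 of 10 members and for 88.7% of all coding genes. The same 9 members had one in the other ranked lists, against 88.4% of coding genes in the conservative list, 89.2% in replicate 1 and 91.6% in replicate 2.

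Replicate support followed signal. Thresholded peaks of both replicates overlapped 18 of the 26 member peaks (69.2%, exact Clopper-Pearson 95% interval 48.2 to 85.7, counting error only) and 51.1% of all pooled peaks. A further 6 were thresholded in 1 replicate and 2 in neither, classes that took in 30.7% and 18.2% of all pooled peaks. The Clopper-Pearson interval takes the peaks as independent. They are not, since a pair of ph-d summits share 1 peak interval, and the genes were chosen with results of these lists known. The Clopper-Pearson interval is therefore not a test against the 51.1%. By complex, 17 of 23 PRC1 peaks and 1 of 3 PRC2 peaks were thresholded in both. The weaker ph-d summit of the pair, of signal 73.6, counted through the same partners, whose summits were 216 bp and 176 bp away. With summits required to lie within 100 bp, 17 of the 26 member peaks had support in both replicates. Among the 4222 pooled peaks of highest signal, the upper part of the list down to its median rank, both replicates supported 16 of the 18 member peaks and 87.3% of all peaks. In the ranked lists all 26 had an overlapping peak in each replicate, and so did 8322 of all 8443 pooled peaks. The replicate 1 signal was the higher one at 22 of the 26, with a median ratio of 1.49 to replicate 2, and at 81.4% of all pooled peaks, with a median ratio of 1.38. The scale of the signal is not stated, so this ratio describes the lists and is not a difference in binding. The peak between the paralogues 1200 bp upstream of ph-d had the lowest ratio of the members, 0.462 with the replicate 1 peak of 84.2, centred 205 bp away, and 0.439 with the closer one of 80.0, and the ph-p peak 434 bp downstream of the first TSS had the highest, 2.71.

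**Figure D4:**
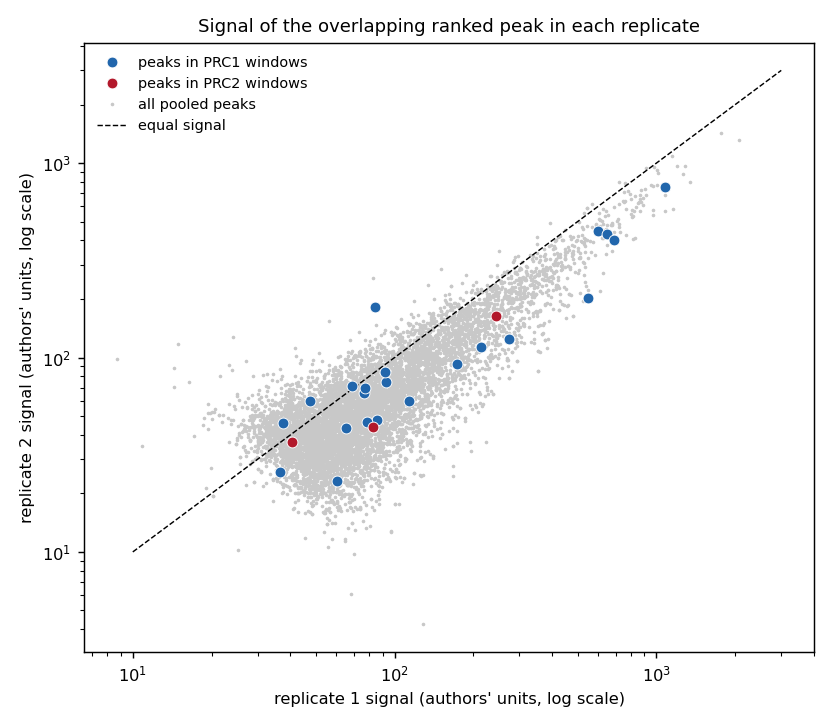
Each point is a pooled peak, placed by the authors' signal of the overlapping ranked peak in replicate 1 (horizontal) and replicate 2 (vertical), both on logarithmic axes, with peaks in PRC1 windows in blue, peaks in PRC2 windows in red, all pooled peaks in grey and equal signal dashed. Of the 26 member peaks, 22 lie below the dashed line, and a pair of ph-d summits that share an interval fall on 1 point.

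Peak shape and base content went with signal among the members. The 8 member peaks ranked in the top 1000, 7 in PRC1 windows and 1 at E(z), all had both-replicate support. Among the 4222 pooled peaks of highest signal 87.3% had such support, and the share over the top 1000 was not computed. The peaks ranked directly above and below the strongest ph-p, ph-d, Pc, Psc and E(z) peaks had it too, so it was not particular to the members. None of the 8 had the list's usual width of 384 bp. That width was taken by 14 of the other 18 and by 74.6% of all pooled peaks, but by 0.1% of all pooled peaks in the top 1000, so it divides the list in general. Within 50 bp of the summit, the median share of G and C was 26.7% in the 8 strong member peaks and 44.1% in the other 18. In the whole pooled list the corresponding medians were 29.7% in the top 1000 and 35.6% below it. The strong member peaks ranged from 15.8% at E(z) to 60.4% at the Psc promoter.

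Short words known as cores of homeodomain, Polycomb recruiter or promoter-binding proteins were counted on both strands within 50 bp of each summit. TAAT was present at 14 of 26 member summits (53.8%) and at 66.6% of all pooled summits. The palindrome TAATTA was present at 4 member summits (15.4%), the ph-p intron peak, the ph-p peak of signal 120, the Psc peak of signal 1064 and the outer Su(z)12 peak, and at 7.97% of all pooled summits. Every TAATTA contains a TAAT on both strands. GAGAG, bound by the GAGA factor, was at 4 member summits (15.4%), all in the Psc or Su(z)2 window, and at 13.9% of all summits. GCCAT, the core recognised by Pho, was at 1 member summit (3.85%), the ph-d peak between the paralogues, and at 13.2% of all summits. GTGTGT was at 1 (3.85%) and at 7.72% of all summits, and TGAGTG, the word of Zeste, was at 2 (7.69%) and at 4.94% of all summits. Both TGAGTG summits were in the ph-p window, 1 of them at the promoter of the neighbour D2hgdh. GGTCACAC and TATCGATA were at 0 member summits and at 0.497% and 0.403% of all summits. GGTCACAC is known as the word of M1BP and TATCGATA as that of DREF. With 26 summits these counts rest on few peaks, and a match is a description, not a binding site.

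The genes that stood next to the members by signal were of many kinds. Directly above the strongest ph-p peak was a peak nearest to CG16753 with a signal of 1880, and directly below it one at the promoter of Tcs5 with 1837. The Pc window peak stood between peaks nearest to CG4586 (1090) and CG4004 (1080), and the strongest Psc peak between peaks nearest to neur (1068), a Notch pathway ubiquitin ligase gene, and Paics (1061). The E(z) peak was between those of RapGAP1 (411) and Acp36DE (409), and the strongest ph-d peak between CG5815 and Sodh2, with the same signal of 368 to 3 digits. At the weaker end, Su(z)2 stood between Gpat4 and nuf, both at 153, Sce between CG7320 and Rpe, both at 145, and Su(z)12 between GlcAT-I and kmr, both at 130.

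Other genes of the system, listed by function, often had peaks too. A pooled peak was in the window of 8 of the 10 members, of 40 of these 53 further genes (75.5%) and of 55.5% of all coding genes. The share over all coding genes was not matched for the window lengths of the further genes, and longer windows can hold more peaks. Among other PRC1 components 4 of 4 had one, led by RYBP, an adaptor of variant PRC1, with a signal of 1258 and rank 55. Among other PRC2 components 4 of 5 had one, led by Caf1-55, a histone-binding subunit, with 1585 and rank 24, followed by jing with 551 and Pcl with 326. The summit nearest to an own TSS was 3961 bp away at Caf1-55 and 5392 bp away at Pcl, so neither had a peak at its own promoter. escl, the paralogue of esc, had none in the pooled list, so these 2 paralogues were both without a pooled thresholded peak.

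Both genes of the Pho-repressive complex other than pho had peaks in their windows, as did 55.5% of all coding genes. phol, the paralogue of pho, had 5 peaks in its window, the strongest with a signal of 1513 and rank 31, and Sfmbt had one of 117 as its strongest. No phol summit was at its own promoter, and the nearest was 909 bp from a phol TSS. pho had none in any list. Of the PR-DUB genes, whose products remove ubiquitin from histone H2A, caly (calypso) had a peak of signal 212 and Asx had none.

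Of 8 further recruiter genes, 7 had a pooled peak, led by Trl, which encodes the GAGA factor, with a signal of 1726, Dsp1 with 522 and psq with 421. Among 16 trithorax group genes, whose products counter Polycomb silencing, 13 had one. The share over all coding genes was 55.5%, not matched for the window lengths of either list. ash1, a histone methyltransferase gene, had the strongest, with a signal of 2235 and rank 3, followed by the Brahma complex genes osa with 1778 and rank 15 and brm with 908 and rank 121. The summit nearest to a TSS was 8144 bp away at ash1 and 3427 bp away at osa, so neither gene had a peak at a promoter of its own.

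Classical Polycomb target genes were near the share of all coding genes, which was not matched for their window lengths. A pooled peak was in the window of 9 of 16 (56.2%), and of 55.5% of all coding genes. Dll, a limb gene, had the strongest with a signal of 784, then cad with 248 and the Hox gene Antp with 204. The Hox gene Abd-B and the gene inv each had 3 pooled peaks, with highest signals of 138 and 148. The Hox genes Ubx, abd-A, Scr and Dfd, and en, eve and tsh, had no pooled peak in their windows.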

How the data were processed

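ChIP-seq peak lists from 2 biological replicates of 1 group of Drgx-eGFP embryos were used. The authors deposited 8 lists on dm6, per the deposited readme texts: a ranked and a thresholded list for each replicate, and, from both replicates, a ranked and a thresholded list called pooled here and another such pair called conservative. The ranked list that held every conservative peak at the same position and score was taken as the conservative one. Aligner, caller and tool versions: not given in the sources used here. The deposited lists give, for each peak, a score of 0 to 1000 set from the irreproducible discovery rate between lists, a signal value of unstated scale, a −log10 q value, which was not used in any result, and a summit offset. Signal and rank were compared within a list. No list holds read counts, so depth is unknown, and 0 columns of unmapped samples were found.

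Coordinates are 1-based. Genes and transcription start sites came from Ensembl release 115, and the sequence from NCBI's Release 6 assembly, beyond which 0 peaks reached. A peak belonged to a gene where at least 1 bp overlapped the gene body or 5 kb on either side, and each replicate supported a pooled peak where a thresholded peak overlapped it by at least 1 bp. Where windows of members overlapped, a peak was counted once per complex and assigned to the gene with the nearer start site. Each word was searched on both strands within 50 bp of the summit, and 36-base words within 150 bp were counted over the 6 chromosomes. Overlap and window counts were checked on made-up data with known answers. The members and the further gene lists were chosen with earlier results of these data known, and no test was made. All 53 further symbols matched a gene, caly through its synonym. Named genes were the members, the genes with the nearest start site to each member peak, the coding genes nearest to the peaks ranked directly above and below each member's strongest peak, and up to 3 genes of each further list by highest signal. The exceptions are escl, Asx, Abd-B, inv and the targets without a peak, named after their values were seen. Alternatives were other lists, windows, overlap rules and words. Python 3.11.15, pandas 2.3.3, numpy 2.4.6, matplotlib 3.10.9 and Biopython 1.88 were used.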

Additional observations from a re-analysis of the deposited data

How the results depend on the processing

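The number of members with a peak was 7 to 8 with either replicate's own list, against 8 in the pooled list, and 6 to 8 with the other lists and windows. The number of peaks in the member windows was 23 to 24 with either replicate's list, against 26, but 14 when the gene body alone was counted, and the PRC1 count was then 12 against 23. The PRC1 count was 22 in both replicates' lists, and the PRC2 count was 1 to 2, against 3, and 5 with 10 kb either side. The number for pho was 0 throughout these settings. A summit within 500 bp of an own start site was found for 5 to 6 members with one replicate's list, against 6. The share of peaks with both-replicate support was 69.2%, 100% with ranked lists as partners and 88.9% in the upper part of the list by signal, and 53.8% to 75% under the other settings. The median rank of the strongest peak, as a percentage of the list, was 8.4% in the pooled list and 8.95% to 10.6% in the replicates' lists. TAATTA was at 2 to 4 member summits in the replicates' lists, against 4. Ranked peaks in the member windows numbered 128 to 145 in the replicates' lists, against 171, and further genes with a peak 33 to 36, against 40. The further genes with a peak numbered 39 in the conservative list and 29 when the gene body alone was counted. The settings for ranked lists, words, sequence copies and further genes were chosen after seeing the data, and causes were not tested. No paired analysis was possible because there is 1 group. Depth, control signal and mapping rules were not given, which limits all values here.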
